A study of Homo sapiens with 6 samples.

Results

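The genes described here carry cells through mitosis: 55 genes of the spindle checkpoint, the kinetochore, the spindle motors, cytokinesis and chromosome condensation, out of 19775 genes measured. They were named by function and read from the probe sets annotated to that gene alone, with the probe set of highest mean over the 6 arrays standing for a gene. All 55 were found, on 107 probe sets. The study set 3 Affymetrix expression arrays of untreated CaSki cells, an established line from a human cervical squamous cell carcinoma, against 3 arrays of CaSki cells given recombinant TGF-β1 at 2 ng/mL. All of the cells were kept in RPMI1640 with heat-inactivated fetal bovine serum and antibiotics, and the controls received medium with no added TGF-β1. How long the cells were treated is not stated in the labels. Nothing in the labels says that replicates were separate cultures, so p-values measure the spread between these arrays, which may be technical.

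Mitosis is driven by CDK1 bound to its cyclins, and chromosomes attach to the spindle through kinetochores. Until every kinetochore is attached, the spindle checkpoint holds back the anaphase-promoting complex, the ubiquitin ligase that destroys securin and cyclin B. TGF-β1 slows the division of many epithelial cells, in part by raising inhibitors of cyclin-dependent kinases, and carcinoma cells often lose part of this response.

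Many mitotic genes carry, near the transcription start, the element TTTGAA or a close form of it, known as the cell cycle genes homology region, and a CCAAT box. The 6 promoters shown are those of the members with the smallest p among the 45 in the RefSeq promoter table (build GRCh38.p14), from 100 bases before the start to 30 after it. They let the motif be seen beside the genes with the firmest differences. The windows are KIF18A at chr11:28108127-28108256 (minus strand), NCAPG at chr4:17810879-17811008 (plus), BUB1 at chr2:110678034-110678163 (minus), ANLN at chr7:36389762-36389891 (plus), BUB1B at chr15:40160969-40161098 (plus) and MKI67 at chr10:128126394-128126523 (minus). Capitals mark the element TTTGAA and its variant form TTCGAA, and also the CCAAT box, on either strand. Read from the opposite strand the element appears as TTCAAA and the box as ATTGG.
KIF18A: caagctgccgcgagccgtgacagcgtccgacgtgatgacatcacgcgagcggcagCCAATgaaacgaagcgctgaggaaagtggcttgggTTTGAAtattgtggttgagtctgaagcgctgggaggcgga
NCAPG: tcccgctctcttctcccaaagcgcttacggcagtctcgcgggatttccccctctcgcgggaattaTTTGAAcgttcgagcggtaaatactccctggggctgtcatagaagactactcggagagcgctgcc
BUB1: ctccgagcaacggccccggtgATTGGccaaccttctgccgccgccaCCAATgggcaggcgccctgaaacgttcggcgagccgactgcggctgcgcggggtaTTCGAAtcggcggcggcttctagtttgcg
ANLN: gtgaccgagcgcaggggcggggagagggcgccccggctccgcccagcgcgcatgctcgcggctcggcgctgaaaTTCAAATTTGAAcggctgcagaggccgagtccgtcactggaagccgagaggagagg
BUB1B: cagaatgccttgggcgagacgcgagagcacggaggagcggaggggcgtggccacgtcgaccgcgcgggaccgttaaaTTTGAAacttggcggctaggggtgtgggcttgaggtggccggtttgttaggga
MKI67: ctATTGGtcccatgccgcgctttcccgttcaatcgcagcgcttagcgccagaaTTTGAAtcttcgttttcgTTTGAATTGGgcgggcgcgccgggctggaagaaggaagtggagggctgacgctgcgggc

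In KIF18A, TTTGAA began 10 bases before the start and CCAAT 45 before it. TTTGAA began 35 bases before the start in NCAPG and 23 before it in BUB1B. ANLN held the motif on each strand in adjoining copies, beginning 26 and 20 bases before the start. MKI67 held it at 47 and 29 bases, and its copy at 29 shares a base with a CCAAT box on the other strand, written TTTGAATTGG. BUB1 had TTCGAA, which reads the same on both strands, 1 base past the start, with CCAAT boxes at 79 and 54 bases before it. Over the whole table window, 300 bases from 250 before to 50 after the start, TTTGAA or TTCGAA was in 33 of 45 members (73.3%) and in 5336 of 27305 genes (19.5%). CCAAT was in 34 of 45 members (75.6%) and in 39.7% of all genes. These are letter matches on both strands and describe the sequences alone. BUB3, CDCA2, TPX2, UBE2C, AURKA, CENPM, CENPH, RACGAP1, TTK and BIRC5 are not in the table.

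The median difference was below 0 in each of the 8 roles, although most members did not pass the test. Of the 55 members 19 (34.5%) fell at an adjusted p below 0.05 by limma, against a background of 4.47% of all genes that fell and 8.5% that passed in either direction. None rose by the adjusted test, against 4.03% of all genes. None was higher even at an unadjusted p below 0.05 by limma, which 23.2% of all genes reached in either direction. The differences were small: the median was -0.29 on the log2 scale, or 17.9% lower, and the range ran from -0.56 for BUB1B to 0.18 for PLK1. Over all genes the median difference was 0.00. In 54 of 55 members the difference was below 0, as in 50.6% of all genes. In 45 members (81.8%) every treated array read below every untreated one, against 16.3% of all genes. The shares of all genes given here are also the background for the counts by role below. All 55 members read above the array medians, while the background includes dim genes. With only genes above the median level kept, 31 members fell, and 2386 of 11941 genes passed in either direction. These are bulk samples, so fewer cells in mitosis and less RNA per cell cannot be told apart.

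**Figure D1:**
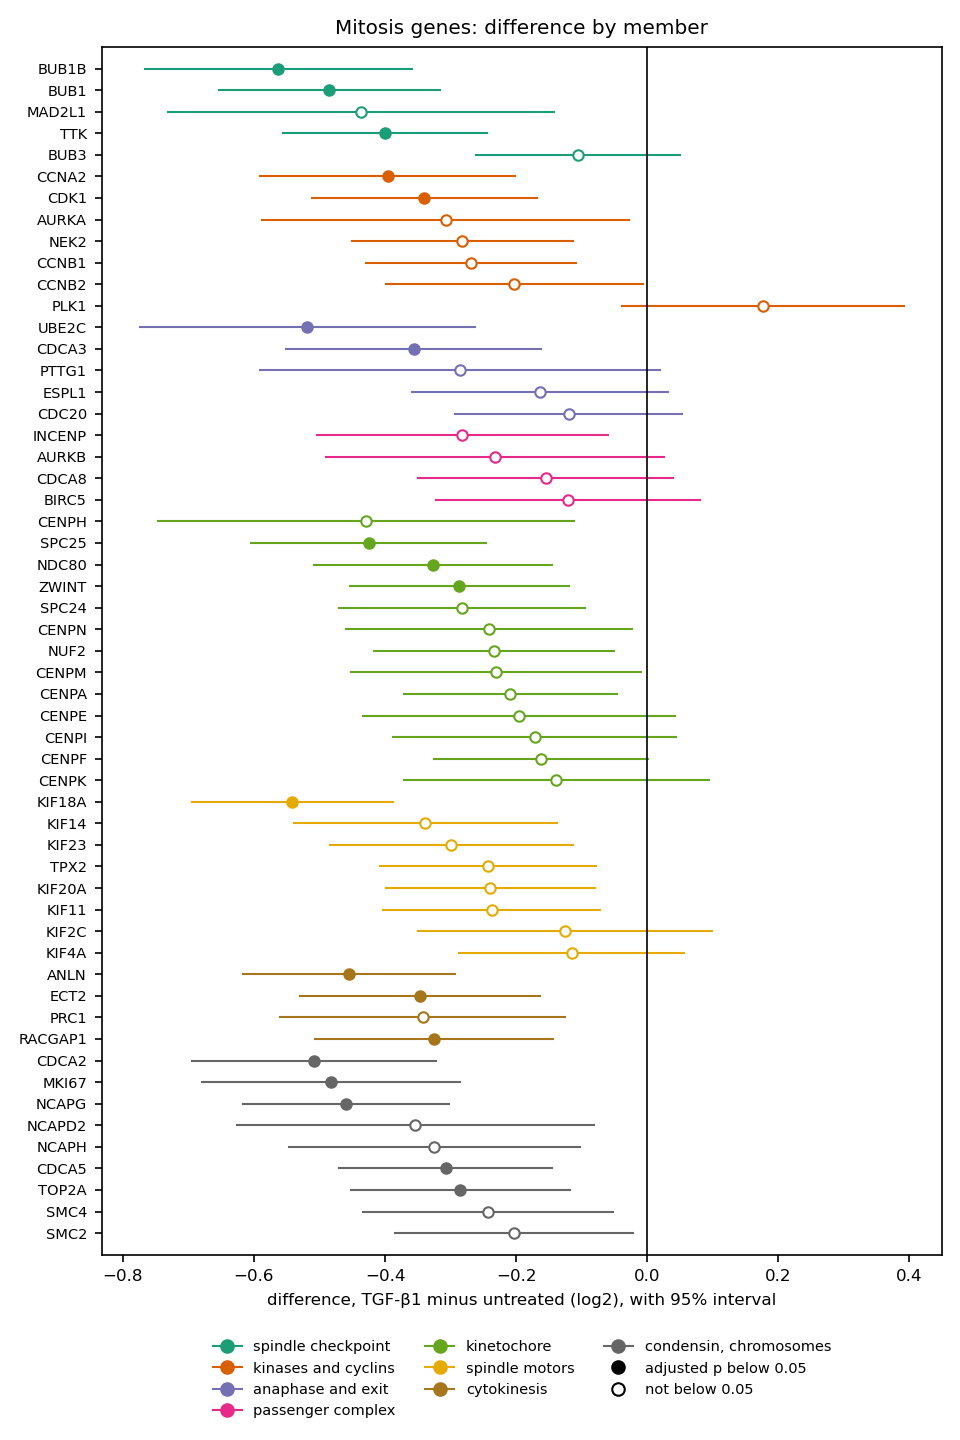
Difference between the mean of the 3 TGF-β1 arrays and that of the 3 untreated arrays for each of the 55 members, on the log2 scale, with its 95% interval and coloured by role. Filled points are the 19 members with an adjusted p below 0.05; all lie left of 0, and PLK1 is the only member to the right of it.

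The count of 19 depended on most arrays: leaving out untreated array 1, 2 or 3 gave 10, 7 and 7. Leaving out treated array 1, 2 or 3 gave 18, 9 and 9. All genes called, 1680 in the full fit, also fell, to 878, 766 and 772 and to 1319, 883 and 933. BUB1, BUB1B, TTK, KIF18A, ANLN, NCAPG and CDCA2 passed without any single array. The median of the members stayed between -0.31 and -0.27 in those fits. No member passed a limma test against a change of 1.2-fold, where 10 had an unadjusted p below 0.05. With a trended, robust variance 36 passed. Over all genes 327 passed the 1.2-fold test and 2629 the fit with trended, robust variance.

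The spindle checkpoint genes had the lowest median of the 8 roles, -0.44. All 5 read lower on every treated array than on any untreated array, as did 16.3% of all genes. BUB1B, the checkpoint component that binds and inhibits CDC20, read 9.43, 9.24 and 9.35 on untreated arrays 1 to 3 and 8.89, 8.65 and 8.79 on the treated arrays. BUB1, the kinase that gathers checkpoint proteins at kinetochores, read 9.01, 9.05 and 9.08 untreated and 8.64, 8.47 and 8.57 treated. TTK, the kinase that starts checkpoint signalling, read 9.16, 9.18 and 9.19 untreated and 8.74, 8.84 and 8.76 treated. In each of these genes the gap between the groups was wider than the spread within either. BUB1B fell by 0.56 (SE 0.0887, adjusted p = 0.00798) and BUB1 by 0.49 (SE 0.0733, adjusted p = 0.00654). TTK fell by 0.40 (SE 0.0675, adjusted p = 0.0107), a level 1.32-fold lower.

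MAD2L1, which closes on CDC20 in the checkpoint complex, read 9.86, 9.71 and 9.75 untreated and 9.63, 9.26 and 9.12 treated. Its treated arrays were far apart, and its difference of -0.44 did not pass (adjusted p = 0.0784); without treated array 1 it was -0.58 and passed (adjusted p = 0.0128). BUB3, the adaptor that brings BUB1 and BUB1B to kinetochores and the member of this role with the highest reading, was at 11.26, 11.27 and 11.36 untreated and 11.19, 11.17 and 11.21 treated. The groups of BUB3 were close but did not overlap. Its difference was -0.11 (95% interval -0.26 to 0.05, adjusted p = 0.404).

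Among the 7 mitotic kinases and cyclins CDK1 and CCNA2 fell, and the median was -0.28. CDK1, the kinase that drives entry into mitosis, read 11.03, 10.98 and 10.98 untreated and 10.73, 10.68 and 10.55 treated. CCNA2, the A-type cyclin that acts before the B-type cyclins, read 9.54, 9.51 and 9.49 untreated and 9.22, 9.16 and 8.97 treated. Untreated arrays of both lay within a narrow band, and treated array 3 was the lowest. CDK1 fell by 0.34 (SE 0.0745, adjusted p = 0.0301), or 1.27-fold, and CCNA2 by 0.40 (SE 0.0845, adjusted p = 0.0274), or 1.32-fold. Both calls were lost on leaving out any one array other than treated array 1, with adjusted p up to 0.0971 and 0.0888.

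PLK1, the polo-like kinase of spindle poles and kinetochores, was the only member with a positive difference. It read 5.65, 5.43 and 5.52 untreated and 5.59, 5.85 and 5.69 treated, with overlapping groups. The difference was 0.18 (95% interval -0.04 to 0.39, adjusted p = 0.31). Its mean reading over the 6 arrays was 5.62, above every array's median. NEK2, a centrosome kinase, and CCNB1, the main partner of CDK1, were -0.28 and -0.27 and just missed the threshold (adjusted p = 0.053 and 0.0534). NEK2 passed without treated array 1 (adjusted p = 0.0445). AURKA, the kinase of spindle poles, was -0.31 (adjusted p = 0.179) with overlapping groups, and CCNB2 was -0.20 (adjusted p = 0.201).

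Of the 5 genes of anaphase and mitotic exit UBE2C and CDCA3 fell. UBE2C, the ubiquitin-conjugating enzyme of the anaphase-promoting complex, read 11.001, 11.14 and 11.08 untreated and 10.31, 10.64 and 10.71 treated. CDCA3, which promotes destruction of the mitosis inhibitor WEE1, read 9.02, 9.08 and 8.91 untreated and 8.54, 8.64 and 8.75 treated. In both genes treated array 1 was the lowest of all 6, and the groups did not overlap. UBE2C fell by 0.52 (SE 0.111, adjusted p = 0.0277), or 1.43-fold, and CDCA3 by 0.36 (SE 0.0843, adjusted p = 0.0392), or 1.28-fold. UBE2C lost its call without any one untreated array or treated array 2 (adjusted p up to 0.0965), and CDCA3 without any of the 6 (up to 0.135). The direct partners in chromatid separation did not pass: PTTG1 (securin) was -0.29, ESPL1 (separase) -0.16 and CDC20, the activator that the checkpoint restrains, -0.12.

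The chromosomal passenger complex, which corrects wrong attachments, had no member that passed by limma and 1 of 4 at an unadjusted p below 0.05, as were 23.2% of all genes. INCENP, its scaffold, was -0.28, AURKB, its kinase, -0.23, and CDCA8 (borealin) -0.16. BIRC5 (survivin), with the highest reading of this role, was at 9.31, 9.41 and 9.39 untreated and 9.09, 9.32 and 9.34 treated. The groups of BIRC5 overlapped, and only treated array 1 lay clearly below them. Its difference was -0.12 (95% interval -0.32 to 0.08, adjusted p = 0.461). Its other probe sets were at -0.23, -0.09 and 0.05.

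**Figure D2:**
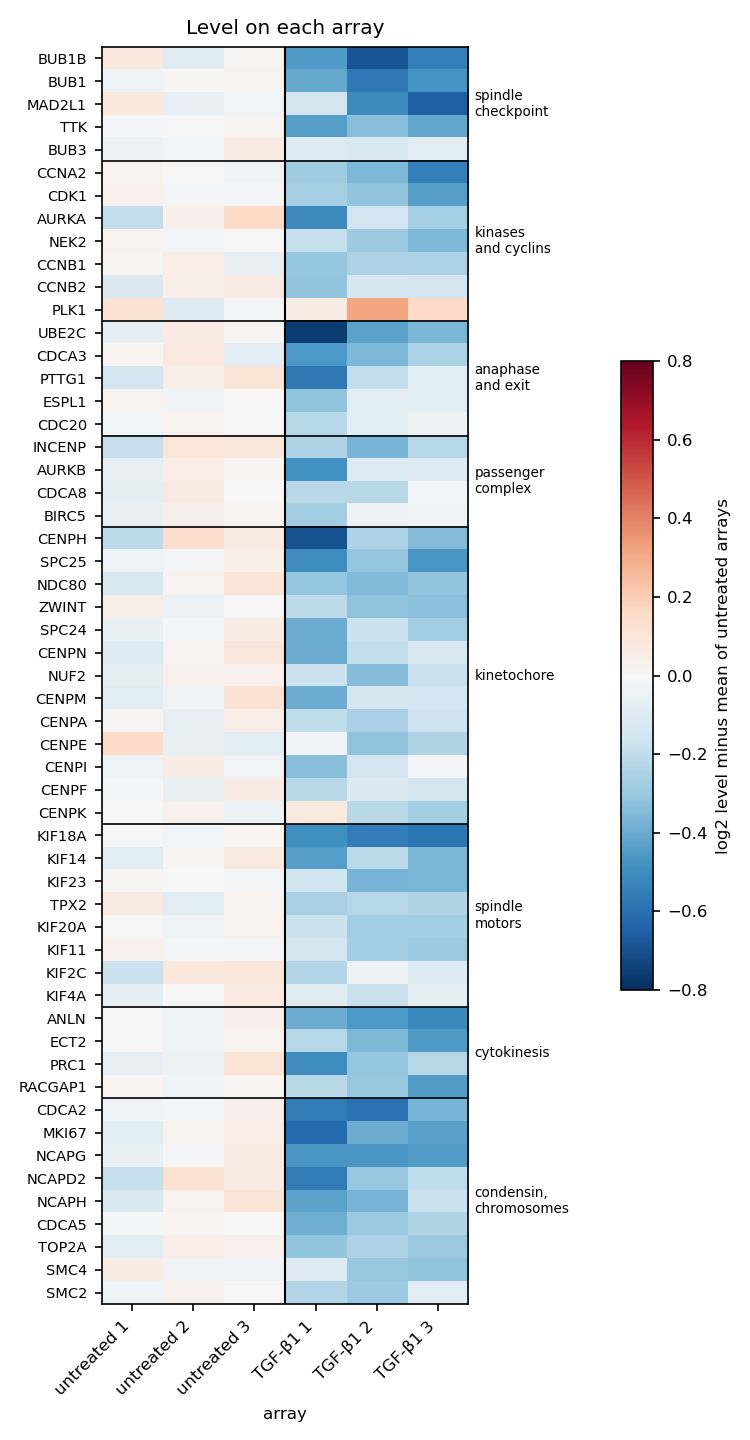
Log2 level of each member on each of the 6 arrays, minus the mean of the 3 untreated arrays, grouped by role; blue is lower and red higher. The 3 TGF-β1 columns are blue for nearly all members, and PLK1 is the row that is red on all 3.

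At the kinetochore 3 of 13 members fell (23.1%), against 4.47% of all genes. All 13 differences were below 0, as in 50.6% of all genes, with a median of -0.23. SPC25 read 7.73, 7.75 and 7.81 untreated and 7.26, 7.45 and 7.29 treated. NDC80 read 8.98, 9.12 and 9.20 untreated and 8.79, 8.75 and 8.78 treated. SPC25 and NDC80 belong to the Ndc80 complex, the main microtubule grip of the outer kinetochore, and neither had overlapping groups. SPC25 fell by 0.43 (SE 0.0778, adjusted p = 0.015) and NDC80 by 0.33 (SE 0.079, adjusted p = 0.0424), or 1.34-fold and 1.25-fold. Their partners in that complex, SPC24 at -0.28 (adjusted p = 0.0749) and NUF2 at -0.23, had no overlap between groups but did not pass.

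ZWINT, which helps to recruit checkpoint proteins to the outer kinetochore and had the highest reading of this role, was at 10.89, 10.80 and 10.85 untreated and 10.64, 10.53 and 10.51 treated. It fell by 0.29 (SE 0.0724, adjusted p = 0.0488), or 1.22-fold. SPC25 lost its call when treated array 3 or untreated array 2 or 3 was dropped (adjusted p up to 0.0654), NDC80 without any array other than untreated array 1 (up to 0.142), and ZWINT without any array other than treated array 1 (up to 0.144). The centromere proteins of the inner kinetochore and CENPE and CENPF ranged from -0.43 in CENPH to -0.14 in CENPK, and none passed. CENPH had the widest spread of them (adjusted p = 0.104). CENPA, the centromere histone, was at -0.21, and CENPN was at -0.24 on its brightest probe set and on another, 0.08 on a further one and 0.13 on a dim one.

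KIF18A, the motor that damps chromosome movement on the spindle, had the smallest p of all members. It read 7.53, 7.51 and 7.55 untreated and 7.03, 6.98 and 6.95 treated, and each group spanned a far narrower range than the gap between them. KIF18A fell by 0.54 (SE 0.0667, adjusted p = 0.00251), a level 1.46-fold lower. It was the only one of the 8 spindle motors and spindle proteins that passed, although all 8 differences were below 0 and the median was -0.24. KIF14 and KIF23, motors of the spindle midzone, were -0.34 and -0.30 (adjusted p = 0.0519 and 0.0603), and KIF23 passed without treated array 1 (adjusted p = 0.028). TPX2, a spindle assembly factor with the highest reading of this role, was at 9.80, 9.64 and 9.75 untreated and 9.47, 9.50 and 9.48 treated, a difference of -0.24 (adjusted p = 0.0807). KIF11, the motor that pushes spindle poles apart, and KIF20A were both at -0.24, and KIF2C and KIF4A, at -0.13 and -0.12, had overlapping groups.

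Of the 4 cytokinesis genes 3 fell, against 4.47% of all genes. None of the 4 had overlapping groups, and 16.3% of all genes were separate in this direction. ANLN, the anillin scaffold of the contractile ring, read 11.49, 11.46 and 11.54 untreated and 11.11, 11.04 and 10.98 treated. ECT2, the exchange factor that activates RhoA at the division plane, read 10.13, 10.09 and 10.16 untreated and 9.90, 9.77 and 9.68 treated. RACGAP1, the partner of KIF23 in centralspindlin, read 10.32, 10.27 and 10.32 untreated and 10.08, 10.00 and 9.86 treated. In all 3 genes treated array 3 was the lowest and treated array 1 the nearest to the controls. ANLN fell by 0.46 (SE 0.0701, adjusted p = 0.00721), ECT2 by 0.35 (SE 0.0797, adjusted p = 0.0358) and RACGAP1 by 0.33 (SE 0.0792, adjusted p = 0.0434). ECT2 and RACGAP1 lost their calls without any array other than treated array 1 (adjusted p up to 0.12 and 0.132). PRC1, which bundles microtubules at the midzone, was -0.34 and did not pass (adjusted p = 0.0647).

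All 9 genes of condensin and the chromosomes had separate groups, and 5 fell, against 16.3% and 4.47% of all genes in this direction. NCAPG, a condensin subunit, read 8.97, 9.003 and 9.08 untreated and 8.55, 8.55 and 8.57 treated. CDCA2, which targets a phosphatase to chromatin at mitotic exit, read 7.50, 7.52 and 7.57 untreated and 6.97, 6.93 and 7.15 treated. MKI67, the Ki-67 protein that coats mitotic chromosomes and marks cycling cells, read 8.93, 9.04 and 9.07 untreated and 8.39, 8.62 and 8.57 treated. The treated arrays of NCAPG almost coincided, while those of MKI67 were spread, with treated array 1 the lowest. NCAPG fell by 0.46 (SE 0.0685, adjusted p = 0.00611), or 1.37-fold. CDCA2 fell by 0.51 (SE 0.0812, adjusted p = 0.00853), or 1.42-fold. MKI67 fell by 0.48 (SE 0.0855, adjusted p = 0.0132), or 1.40-fold, and lost its call without untreated array 2 or 3 (adjusted p up to 0.0598).

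CDCA5 (sororin), which keeps sister chromatids together, read 8.52, 8.53 and 8.52 untreated and 8.13, 8.23 and 8.28 treated. TOP2A, the topoisomerase that untangles sister chromatids and the highest reading of this role, was at 11.43, 11.57 and 11.55 untreated and 11.20, 11.27 and 11.23 treated. The untreated arrays of CDCA5 were almost identical. CDCA5 fell by 0.31 (SE 0.0709, adjusted p = 0.0359) and TOP2A by 0.29 (SE 0.0725, adjusted p = 0.0497), and each lost its call without any one of the 6 arrays (adjusted p up to 0.117 and 0.161). The other condensin subunits, NCAPD2 at -0.35, NCAPH at -0.32, SMC4 at -0.24 and SMC2 at -0.20, did not pass.

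The treated arrays did not rank the roles alike. On treated array 1 the mean over the anaphase and exit genes lay 0.47 below that of the untreated arrays, against 0.23 and 0.17 below on treated arrays 2 and 3. For the checkpoint genes treated array 1 was the least changed, 0.31 below, against 0.45 and 0.44 below. Over all 55 members the treated arrays were alike, at 0.32, 0.28 and 0.27 below. Treated array 1 was the lowest treated array for 29 members and the highest for 19. The cause of this split was not tested.

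**Figure D3:**
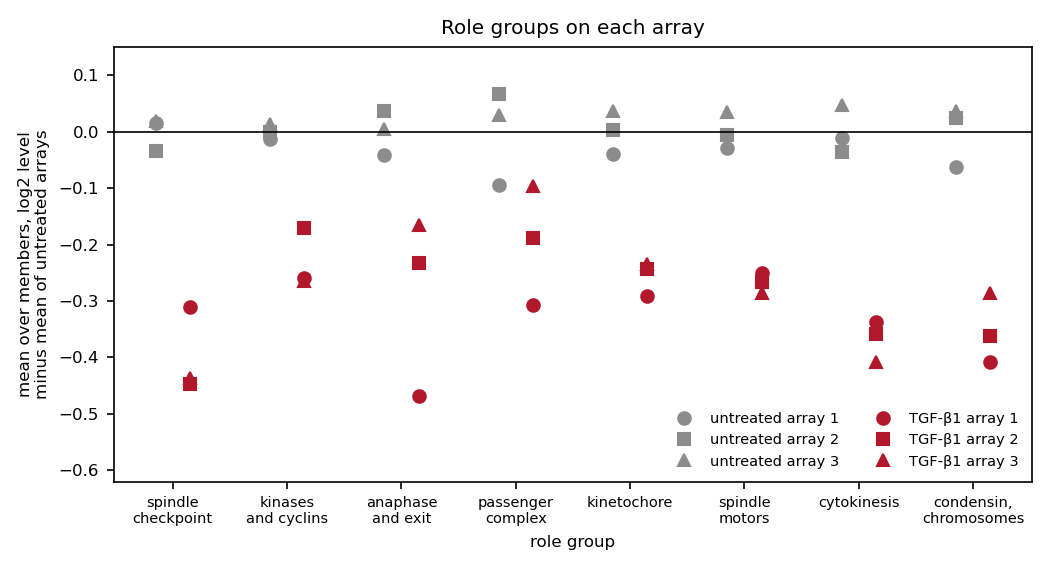
Mean over the members of each role on each array, as log2 level minus the mean of the untreated arrays; grey symbols are untreated arrays and red symbols TGF-β1 arrays. Every red symbol lies below every grey one in its role, although for the passenger complex TGF-β1 array 3 and untreated array 1 are nearly level.

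Probe sets that did not choose the values gave a second reading of 28 members. Of these 52 further probe sets 38 read above the array medians, and 36 of the 38 had a difference below 0, with a median of -0.24. By brightest probe set, 50.6% of all genes were below 0. BIRC5 and CENPN held the other 2. After adjustment over all 41091 probe sets with a single gene 7 of the 38 passed, all lower. Of the 41091 probe sets 1921 passed in either direction. The second probe set of MAD2L1 fell by 0.61 (adjusted p = 0.0066) and that of CCNB1 by 0.39 (adjusted p = 0.036), although their brightest probe sets had not passed. CDK1 was at -0.41 and -0.44, ANLN at -0.55, NCAPG at -0.44 and CCNA2 at -0.38, close to their main values. The probe sets of MKI67 ran from -0.48 on the brightest through -0.25 and -0.18 to -0.04. Those of BUB1 ran from -0.49 on the brightest through -0.29 and -0.10 to 0.10 and 0.14 on its dim ones. With the mean of all its probe sets a gene could miss the threshold: BUB1 was then at -0.13 (adjusted p = 0.411), MKI67 at -0.24 (adjusted p = 0.137) and TOP2A at -0.15 (adjusted p = 0.194). The 14 dim probe sets split evenly, 7 below 0 and 7 above.

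**Figure D4:**
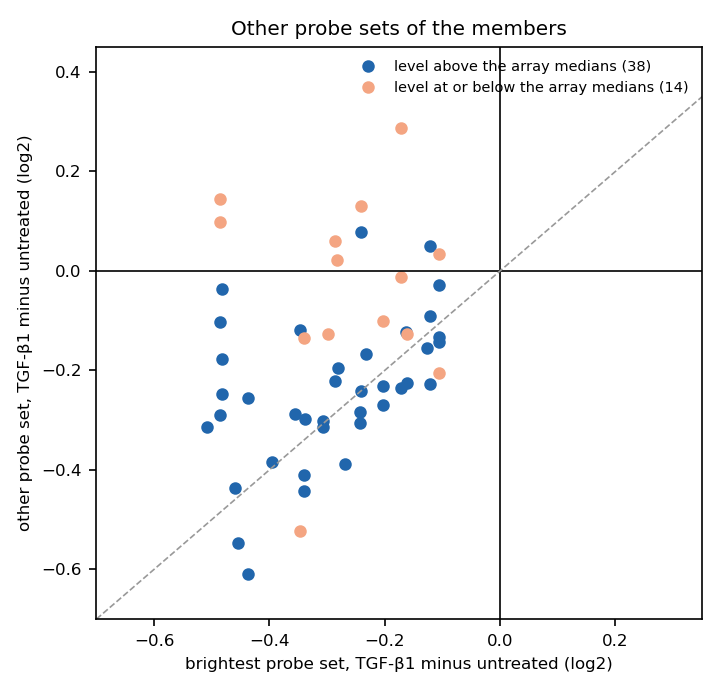
Difference on the brightest probe set of a member (horizontal) against the difference on each of its other probe sets (vertical), both as TGF-β1 minus untreated on the log2 scale, for 28 members; the dashed line marks equality. Of the 38 blue points, probe sets above the array medians, 36 lie below 0, and the 14 dim probe sets lie on both sides.

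Genes outside the 55 that work beside them were read in the same fit, in which 4.47% of all genes fell and 4.03% rose. Of 30 other kinetochore and checkpoint genes 5 fell and none rose, with a median of -0.15. HJURP, the chaperone that loads CENPA, fell by 0.56 (adjusted p = 0.00303), and OIP5 by 0.43, TRIP13 by 0.37 and CENPW by 0.29. CENPW lost its call without any one of the 6 arrays (adjusted p up to 0.103), and TRIP13 without any but treated array 1 (up to 0.0735). Of 31 other spindle and cytokinesis genes 9 fell and none rose, with a median of -0.26. PSRC1 fell by 0.47, PLK4, the kinase of centriole duplication, by 0.46 and DEPDC1 by 0.34. CDCA7L, kept in this list though not known as a spindle or cytokinesis gene, fell by 0.42. CDCA7L lost its call without untreated array 2 or 3 (adjusted p up to 0.0667), and DEPDC1 without any but treated array 1 (up to 0.111). Of 12 cohesin and other condensin genes 3 fell, SMC3 of the cohesin ring by 0.48, NCAPD3 by 0.34 and STAG1 by 0.30; NCAPD3 and STAG1 each lost the call without any one of the 6 arrays (adjusted p up to 0.108 and 0.148). SMC3 was at -0.0006 on its brightest probe set without a shared-sequence suffix, and STAG1 at -0.04 with the mean of its probe sets. The 15 measured genes of the anaphase-promoting complex and its regulators had a median of -0.01. Of these 1 fell, the inhibitor FBXO5 by 0.32, and 1 rose, ANAPC15 by 0.33. Each is 6.67% of the 15, near the shares of all genes, 4.47% and 4.03%. Both genes lost the call without any array but treated array 1 (adjusted p up to 0.0914 and 0.0965).

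Of 13 genes of mitotic entry 5 fell, among them WEE1, the kinase that holds CDK1 inactive, by 0.45, MASTL by 0.44 and PBK by 0.37. The scaffold subunit of protein phosphatase 2A, PPP2R1A, rose by 0.67 (adjusted p = 0.00172). Of 39 DNA replication factors 9 fell and none rose, with a median of -0.21, led by MCM10 at -0.60, with PRIM1 at -0.39, RFC3 at -0.38 and POLE2 at -0.32. With 1 array left out between 1 and 4 replication factors were called lower, 2 to 10 of the other spindle genes, 2 or 3 of the other kinetochore genes, 1 to 3 of mitotic entry and 1 of cohesin; the 10 and the 4 came without treated array 1. MASTL lost its call without untreated array 3 or treated array 2 or 3 (adjusted p up to 0.0606), POLE2 without any one of the 6 (up to 0.114), and PBK, PRIM1 and RFC3 without any but treated array 1 (up to 0.138, 0.0751 and 0.0751). With the mean of its probe sets RFC3 was at -0.15, and MCM10 was at -0.38 on its brightest probe set without a shared-sequence suffix. Of the genes named in these lists HJURP, OIP5, PSRC1, PLK4, SMC3, WEE1, PPP2R1A and MCM10 passed without any single array.

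**Figure D5:**
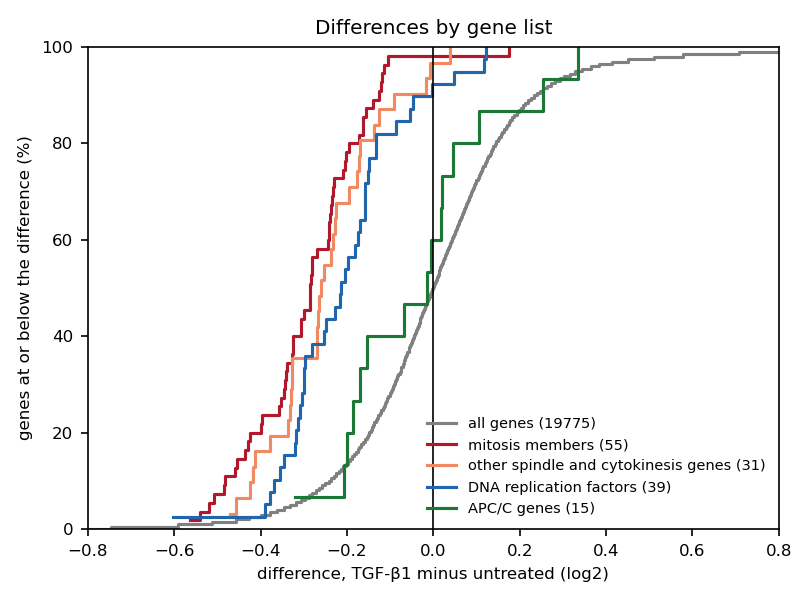
Share of genes (percent) at or below each difference, TGF-β1 minus untreated on the log2 scale, for all 19775 genes, the 55 members and 3 other lists. The members (red) and other spindle genes (orange) lie left of all genes (grey), and genes of the anaphase-promoting complex (green) lie closer to it; the axis ends at -0.8 and 0.8.

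Of 23 regulators of mitotic transcription 3 fell (13.0%) and 2 rose (8.70%), against 4.47% and 4.03% of all genes, and 18 did not pass. CDKN1A (p21), an inhibitor of cyclin-dependent kinases, read 8.37, 8.33 and 8.37 untreated and 9.11, 9.13 and 9.14 treated. CDKN1A rose by 0.77 (SE 0.0651, adjusted p = 0.0004), or 1.71-fold, and its groups were far apart. CDKN2B, an inhibitor of CDK4 and CDK6 and a known TGF-β target, rose by 0.83 (adjusted p = 0.00289), or 1.78-fold, but was 0.41 with the mean of its probe sets (adjusted p = 0.0628). RBL1 (p107), a pocket protein of the DREAM repressor, fell by 0.56 (adjusted p = 0.0041), and E2F8, an atypical E2F repressor, fell by 0.62 (adjusted p = 0.0133). E2F8 lost its call without untreated array 2 or 3 (adjusted p up to 0.0588). CDKN1B (p27) fell by 0.32 (adjusted p = 0.0274) and lost its call without any one of the 6 arrays (up to 0.104).

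FOXM1 and MYBL2, activators of G2 and mitotic genes, did not pass. FOXM1 was at 0.01 (95% interval -0.17 to 0.19) and ranged from -0.03 to 0.06 as single arrays were left out. MYBL2 was at -0.05 (95% interval -0.26 to 0.16) and ranged from -0.12 to 0.03 in the same way, so neither had a settled direction. FOXM1, MYBL2 and CDKN1B were singled out after their values were seen.

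Among the promoters the TTTGAA or TTCGAA motif was in 14 of 15 members that fell and in 19 of 30 that did not pass. Counted apart, TTTGAA was in 12 of 15 and 19 of 30, and TTCGAA in 3 of 15 and 0 of 30. CCAAT ran the other way, in 10 of 15 and 24 of 30, and TTTGAA with CCAAT was in 53.3% of both. Within 60 bases before to 20 after the start TTTGAA or TTCGAA was in 12 of 15 and 13 of 30 of these members. The share over all genes was 5.04%. This shorter window was chosen after the values were seen. Of all 19 members that fell, 12 lost the call without at least 1 array. TTTGAA alone was in 31 of 45 members (68.9%), in 20 of 29 other spindle and cytokinesis genes (69.0%) and in 2 of 34 DNA replication factors (5.88%). The E2F-type letters TTTGGCGC or TTTCGCGC were in 1 of 45 members and in 12 of 34 replication factors (35.3%), against 1.40% of all genes.

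All 6 arrays had like medians, 4.15 to 4.18, and arrays of one group correlated over all probe sets at 0.994 to 0.996, against 0.992 to 0.993 between groups. All 5 measured genes of the TGF-β check list rose, among them SMAD7 by 1.67 and PMEPA1 by 1.98. Markers chosen for squamous carcinoma cells averaged 10.2 to 10.3 untreated and 10.3 to 10.4 treated over 6 genes. These were KRT5, KRT14, DSP, CDH1, EPCAM and CDKN2A, not all of them particular to squamous cells. Of the 8 chosen, KRT17 and TP63 were not measured. EPCAM fell by 0.70 and KRT14 rose by 0.77. Fibroblast markers averaged 4.40 to 4.58 untreated and 4.75 to 4.81 treated over 7 genes, of which COL1A1 alone rose, by 1.58 (0.65 with the mean of its probe sets). Endothelial and immune markers averaged 4.16 to 4.23 and 4.11 to 4.17 over 7 genes, of which only CDH5 passed, at -0.41 and a level below the array medians; it lost that call without any array other than treated array 3 (adjusted p up to 0.105). The log2 difference of 3' minus 5' control signal, a sign of RNA quality, was 1.19, 0.863 and 0.770 untreated and 1.15, 0.690 and 0.735 treated. It did not differ beyond its spread (exact two-sided permutation p = 0.5, with 0.1 the smallest possible). With that log2 difference as a covariate 29 members fell. All genes called in either direction then came to 1978, against 1680 in the main fit. Whether these markers had a part in the mitotic differences was not tested.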

How the data were processed

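Levels came from the authors' deposited table of log2 values for 6 arrays, made with RMA in Affymetrix Expression Console per the submitters' processing notes; no version of either is stated there, and the log2 scale was read from the values. RMA shrinks differences of dim probe sets. Of 54675 probe sets 41091 carried a single gene symbol, 1801 several and 11721 none, with 62 controls. The brightest probe set stood for each of 19775 genes. limma 3.58.1 (R 4.3.3) compared 3 treated with 3 untreated arrays, with Benjamini-Hochberg adjustment over all genes and a threshold of 0.05. On simulated data of 19775 genes it recovered 59% of 1.5-fold and 89% of 2-fold changes, and 5.13% of its calls were false. Both sizes exceed the largest member difference, 1.48-fold lower for BUB1B, and the simulated noise was independent between arrays. Recovery of changes as small as those of the members was not tested. No sample column was left out (0).

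Full values were given for members that passed, for the brightest member of each role and for PLK1, the only member with a positive difference. MAD2L1 was given in full outside this rule. Of other lists up to 4 genes of smallest p were named, and FOXM1, MYBL2 and CDKN1B beside them. Members and lists were chosen with earlier results of these data known. The alternatives were quantile scaling, median centring, filters on level, other probe-set rules, other variance models, an array covariate, a replicate block and arrays left out. The number of arrays limits the precision.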

Additional observations from a re-analysis of the deposited data

How the results depend on the processing

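Over 25 alternatives no member passed in the higher direction, and 52 of 55 members stayed below 0 in every one. Of 1363 member values 2 reversed, BIRC5 (0.0501) and CENPN (0.0784), both when the brightest probe set without a shared-sequence suffix stood for the gene. Part of these values could not reverse. The filters on level, the trended variance, the replicate block, the 1.2-fold test and the single probe-set fit left each member's difference unchanged. Fits that kept the probe sets of the full fit repeated the members' differences with 1 array left out. The count of members that fell, 19, was 16 with quantile scaling, 17 with median centring, 31 with genes above the median level only, 36 with trended robust variance, 29 with the 3' to 5' covariate, 11 with each probe set tested singly, 0 against a 1.2-fold change, 7 with both arrays numbered 1 left out, and 7 to 18 with 1 array left out. The median difference of the members was -0.24 with the mean of probe sets. All genes called, 1680, came to 995 without shared-sequence probe sets, 2629 with trended robust variance, 327 against 1.2-fold, 628 with both arrays numbered 1 left out, and 766 to 1319 with 1 array left out. They came to 1720 with quantile scaling, 1625 with median centring and 1978 with the 3' to 5' covariate. Above the median level 2386 of 11941 genes were called, and singly 1921 of 41091 probe sets. With the probe sets of the full fit kept, leaving out untreated array 1, 2 or 3 or treated array 2 or 3 gave 10, 7, 7, 9 and 9 members and 877, 768, 770, 884 and 934 genes.

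Treated minus untreated, the 3' to 5' log2 signal differed by -0.08. With 1 array left out this ranged from -0.227 to 0.0432, turning above 0 without untreated array 1 or treated array 2 (0.0049). FOXM1 was -0.0024 with the covariate, -0.0002 with both arrays numbered 1 left out, and -0.0336 to 0.0607 with 1 left out, with -0.0148, -0.0159 and -0.0336 without untreated array 1, untreated array 2 and treated array 3. MYBL2 was 0.0159 with both numbered 1 left out, and -0.1176 to 0.0336 with 1 left out. The cause was not tested in any of these, and the fits with arrays left out also rest on fewer arrays.

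The labels do not say whether replicate numbers pair the arrays, and the main fit did not use them. Same-numbered arrays correlated in their deviations at 0.20, 0.056 and 0.091. Of 6 arrays 5 correlated best with their own number, a hint of pairing from the data and not the design. The log2 difference of 3' minus 5' signal was 1.19 and 1.15 on the arrays numbered 1, against 0.690 to 0.863 on the others. With the replicate block 14 members fell, 12 of them among the 19, and 1280 genes in all were called. Background signal per probe set was not analysed here.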
